A study of Homo sapiens with 6 samples.

Results

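The genes described here are receptor tyrosine kinases (RTKs), the cell-surface kinases that bind growth factors, together with NGFR, a neurotrophin receptor without a kinase domain. They were chosen by gene symbol from a list of 36 that leaves out the ephrin receptors and ROR. Of the 36, 29 are in the count table, which holds 24526 genes, and 24 of these had enough reads to be tested. The expression of the other 7 listed genes, ERBB4, KIT, FLT3, FLT4, FGFR2, NTRK2 and ROS1, was not analysed here. WM266.4 cells come from an established line of human melanoma. Their RNA was sequenced 48 h after transfection in 3 libraries given a negative control siRNA (neg.si, control.si in the labels) and 3 given an siRNA against RIPK4 (RIPK4.si), a serine/threonine kinase. The comparison asks what transient silencing of RIPK4 does to the transcripts of these cells. It rests on a single cell line and a single siRNA product, the transfected cultures were sequenced in bulk, and p-values measure only the spread between these replicates.

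RTKs dimerise on binding a ligand, phosphorylate each other and recruit adaptors that lead to the MAPK and PI3K pathways, while Sprouty proteins, MAPK phosphatases and ubiquitin ligases restrain the signal. Melanoma cells can move between a pigmented state driven by the transcription factor MITF, a neural crest-like state marked by NGFR, and a dedifferentiated state low in MITF, in which AXL, EGFR or PDGFRB are often high. ERBB3 is the receptor for neuregulin in cells of this lineage, and AXL, MERTK and TYRO3 form the TAM family, whose ligands are GAS6 and protein S.

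The libraries held between 28464057 and 31688095 counts. RIPK4 itself had 85.8, 76.5 and 54.7 CPM (counts scaled to a common library size) in neg.si and 19.9, 16.7 and 21.5 CPM in RIPK4.si, so the groups did not overlap. It fell by 1.90 on the log2 scale (SE 0.20, edgeR adjusted p = 0.0102). All 7 melanoma markers examined (SOX10, PMEL, MLANA, TYR, DCT, MITF, S100B) were in the table, with a summed level of 3550 to 3990 CPM in neg.si and 2600 to 2720 CPM in RIPK4.si. In mean CPM, TYR (1348 in neg.si and 911 in RIPK4.si), DCT (700 and 423), S100B (703 and 505) and PMEL (280 and 114) were lower. MITF (348 and 358), MLANA (12.5 and 13.1) and SOX10 (367 and 331) were nearer to level. Other cell types were low apart from fibroblast markers, at 637 to 821 CPM in neg.si and 514 to 1050 CPM in RIPK4.si, of which nearly all was COL1A2. Keratinocyte markers summed to 10.6 to 12.3 CPM in neg.si and 12.5 to 16.4 in RIPK4.si, and leukocyte markers to 5.54 to 8.07 and 3.46 to 4.74 CPM. Neither sum overlapped between the groups. Most of the leukocyte sum was ITGAM, with a mean of 5.17 CPM in neg.si and 2.62 in RIPK4.si (edgeR adjusted p = 0.167, DESeq2 adjusted p = 0.0477). The part of these markers in the receptor results was not tested. Libraries neg.si 1 and neg.si 3 stood apart. The rank correlation, across 16239 genes, of a gene's GC content with its deviation from the mean of all libraries was 0.555 in neg.si 1 and -0.547 in neg.si 3, against -0.0788 to 0.165 in the other 4 libraries. For several receptor genes, values without these libraries are given as well.

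MERTK was the receptor gene called by edgeR and DESeq2, and TIE1 passed as well where the GC trend was removed. The MERTK call rests on 12 to 68 counts a library. It did not hold without neg.si 2 or without any 1 RIPK4.si library. Of the 24 tested, 1 passed in edgeR's quasi-likelihood test at a Benjamini-Hochberg adjusted p under 0.05, against 0.767% of all 16297 genes tested, which is 125 genes. At an unadjusted p under 0.05, 5 receptor genes were lower in RIPK4.si (MERTK, TIE1, RET, FGFR3 and ERBB3), against 6.0% of all genes, and 0 were higher, against 4.85%. The 3 neg.si and 3 RIPK4.si libraries did not overlap for 6 receptor genes that were lower, the same 5 and MST1R, against 9.4% of all genes. They did not overlap for 1 that was higher, AXL, against 8.23%. The median log2 fold change of the 24 was -0.05, and that of all genes was -0.02, with 11 receptor genes above 0 and 13 below. DESeq2 called 1 receptor gene, MERTK, and 2.78% of all genes with an adjusted p. With the GC trend of each library removed, edgeR called 2, MERTK and TIE1, and 3.27% of all genes.

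**Figure D1:**
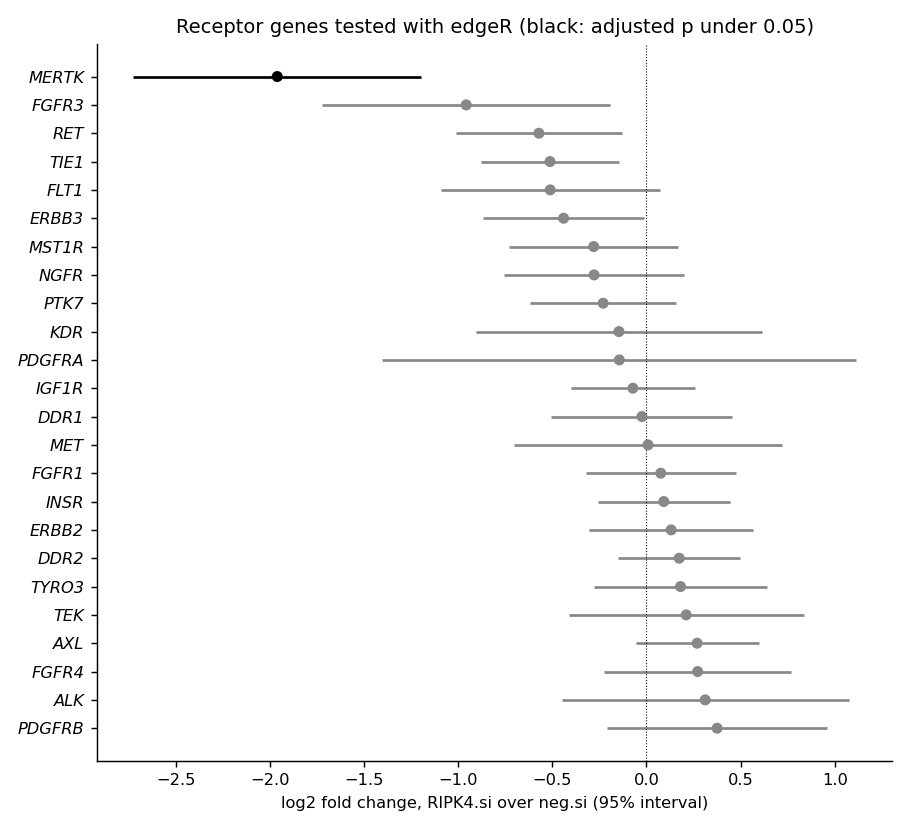
Log2 fold change of RIPK4.si over neg.si for the 24 receptor genes tested, with 95% intervals from edgeR (x axis, log2 scale), 3 libraries a group. MERTK lies at -1.96, far from the others, which run from -0.96 to 0.38.

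The receptor genes differed far more from each other than between the groups. Per kilobase of exon, AXL had the highest level of the 29 in both groups, 47.1 ± 4.26 CPM per kb in neg.si and 56.8 ± 3.80 in RIPK4.si (SD, n = 3). NGFR (17.7 ± 5.15 CPM per kb in neg.si) and ERBB3 (17.3 ± 1.75) followed, and their ranges overlapped. IGF1R (10.4 ± 0.467) and DDR2 (10.4 ± 1.06) came next and also overlapped, below ERBB3. From IGF1R down to FGFR1, every gene overlapped its neighbour in this order: PTK7 at 8.91, DDR1 at 7.37, TIE1 at 7.13, ERBB2 at 6.01, TYRO3 at 5.95, FLT1 at 5.11 and FGFR1 at 4.95 CPM per kb. INSR stood alone at 2.67, and the other 16 genes were at 0.721 CPM per kb or less. MERTK, at 0.403 CPM per kb, ranked 19 of 29 in neg.si and 23 of 29 in RIPK4.si. The summed level of the 29 was 156 ± 10.1 CPM per kb in neg.si and 155 ± 6.81 in RIPK4.si (SD, n = 3, exact permutation p = 0.80, two-sided). AXL made up 30.4% ± 2.54 of that sum in neg.si and 36.7% ± 1.31 in RIPK4.si. These 3 against 3 libraries did not overlap, and the exact permutation p was 0.10, the smallest that 3 against 3 allows. With the length of the longest transcript in place of all exons, AXL was still the highest and its neg.si share was 23.0%, and ERBB3 came before NGFR. The order below them did not hold: DDR1 ranked 4 and FGFR1 ranked 6 (13.7 CPM per kb in neg.si), while IGF1R ranked 9 and DDR2 ranked 10. INSR kept rank 13 and MERTK rank 19.

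**Figure D2:**
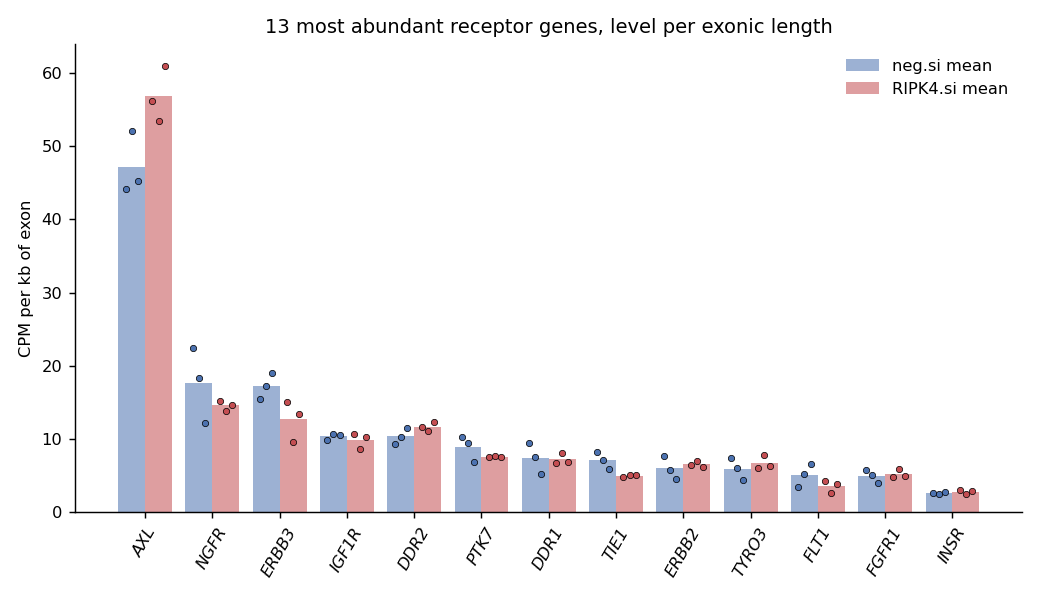
Mean level of the 13 receptor genes with the highest neg.si level, in CPM per kilobase of exon on a linear axis (bars, neg.si and RIPK4.si side by side), with each library as a point. AXL stands at 47.1 and 56.8 CPM per kb, and the next gene, NGFR, at 17.7 in neg.si.

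In the TAM family, the receptor that fell was the one with the fewest reads. MERTK, on chromosome 2 (111898607 to 112029561, plus strand, GRCh38), had 37, 50 and 68 counts in neg.si, or 1.19, 1.66 and 2.14 CPM. In RIPK4.si it had 13, 12 and 13 counts, or 0.443, 0.415 and 0.418 CPM. Every RIPK4.si library lay below every neg.si library, and the RIPK4.si mean was 25.5% of the neg.si mean. The log2 fold change was -1.96 (SE 0.34, 95% interval -2.73 to -1.20, edgeR adjusted p = 0.0407, DESeq2 adjusted p = 0.00163). MERTK, whose longest transcript has a GC content of 46.7%, was lower in neg.si 1 and higher in neg.si 3 than in neg.si 2. The log2 fold change was -2.13 without neg.si 1 (edgeR adjusted p = 0.0446) and -1.73 without neg.si 3 (0.0385), and the call also held with the GC trend removed (0.0163). It did not pass without neg.si 2 (edgeR adjusted p = 0.251) or without any 1 of the RIPK4.si libraries (0.150 to 0.278), each of which leaves 5 libraries in the fit. In bulk RNA, fewer cells with a transcript and less of it per cell cannot be told apart.

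AXL, on chromosome 19 (41219223 to 41261766, plus strand, GRCh38), had 227, 267 and 232 CPM in neg.si and 288, 274 and 313 CPM in RIPK4.si. The highest neg.si library lay just under the lowest RIPK4.si library. The log2 fold change was 0.27 (SE 0.15, 95% interval -0.06 to 0.60, edgeR adjusted p = 0.581), so a difference was not shown. Its exons overlap those of a gene on the opposite strand, and because reads were counted without regard to strand, reads of the 2 genes cannot be told apart. TYRO3 had 79.4, 64.6 and 48.3 CPM in neg.si and 65.6, 84.8 and 67.5 CPM in RIPK4.si, which overlapped (log2 fold change 0.18, SE 0.20, edgeR adjusted p = 0.872). The TYRO3 value was 0.38 without neg.si 1 and 0.02 without neg.si 3, with edgeR adjusted p of 0.438 and 0.981. Within single libraries, there were 5.26, 6.23 and 9.23 MERTK counts per 1000 AXL counts in neg.si and 1.54, 1.51 and 1.34 in RIPK4.si. This ratio needs no scaling between libraries. MERTK lay lower and AXL higher in every RIPK4.si library than in any neg.si library, so the ratio could not overlap and adds no evidence. The ligands were closer to even than MERTK, though PROS1 lay as far from it as AXL. GAS6 had a log2 fold change of 0.17 (edgeR adjusted p = 0.903), and 0.004 to 0.27 with a library left out. PROS1, which encodes protein S, had 209, 231 and 260 CPM in neg.si and 208, 182 and 191 in RIPK4.si, which did not overlap (log2 fold change -0.27, edgeR adjusted p = 0.588).

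**Figure D3:**
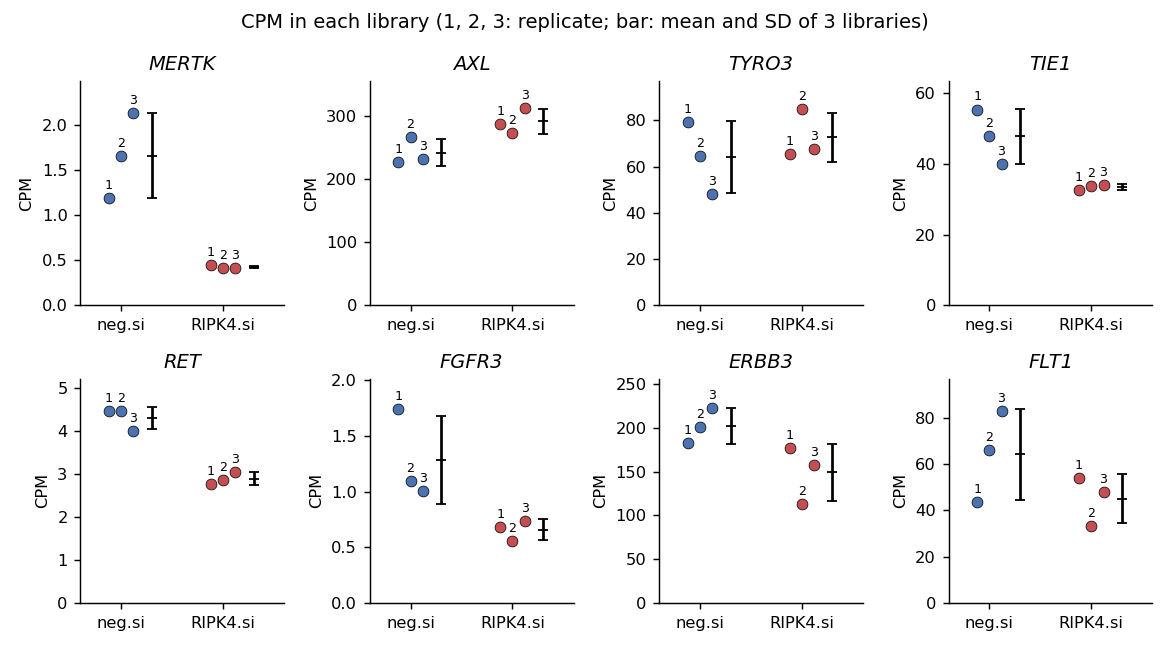
CPM in every library (points numbered by replicate) of MERTK, AXL, TYRO3, TIE1, RET, FGFR3, ERBB3 and FLT1, on an axis from 0 for each gene, with bars for the mean and SD of 3 libraries. The 3 RIPK4.si points of MERTK sit between 0.415 and 0.443 CPM, all below the neg.si points at 1.19 to 2.14 CPM.

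The DNA just before the starts of the TAM genes is given as a description, and its part in their values was not tested. Of the 36 receptor genes, 31 matched the RefSeq promoter table (GRCh38.p14), and ERBB3, FLT4, FGFR1, NGFR and STYK1 did not. The 250 bases before each start were searched on both strands for 4 motifs, none of which contains another: the E-box CACGTG and the M-box core CATGTG, which MITF can bind, the AP-1 site TGANTCA and the TEAD site GGAATG. The bases printed are on the plus strand, 5′ to 3′, and capitals mark a motif match. They are the window before MERTK at chr2:111898357-111898606, the window before the second RefSeq start of AXL at chr19:41226505-41226754, and the first window of TYRO3 at chr15:41558962-41559211. For AXL and TYRO3, the window printed is the one that held a match.
MERTK: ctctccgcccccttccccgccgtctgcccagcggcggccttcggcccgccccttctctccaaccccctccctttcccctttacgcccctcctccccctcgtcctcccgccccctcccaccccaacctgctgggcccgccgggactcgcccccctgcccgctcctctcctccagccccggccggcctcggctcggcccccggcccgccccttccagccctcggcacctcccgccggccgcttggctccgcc
AXL: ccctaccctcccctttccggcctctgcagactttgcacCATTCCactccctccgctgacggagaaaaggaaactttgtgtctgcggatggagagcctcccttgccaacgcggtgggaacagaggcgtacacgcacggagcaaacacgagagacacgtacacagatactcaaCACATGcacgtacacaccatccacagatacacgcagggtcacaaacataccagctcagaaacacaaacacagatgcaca
TYRO3: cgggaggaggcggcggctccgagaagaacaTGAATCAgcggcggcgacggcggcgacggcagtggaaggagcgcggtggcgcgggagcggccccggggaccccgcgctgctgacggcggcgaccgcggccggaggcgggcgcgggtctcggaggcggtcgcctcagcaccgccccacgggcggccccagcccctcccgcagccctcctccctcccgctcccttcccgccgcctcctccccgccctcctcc
The MERTK window held none of the 4 motifs, and 78.8% of its bases were G or C. The AXL window held a TEAD site that began at position -212 from the start and an M-box core at -79, both read on the minus strand, and the window before the first AXL start held none of the 4. The TYRO3 window held an AP-1 site at -220, and the second TYRO3 window held none of the 4. The 31 receptor genes have 57 windows, since some have several starts. Of these windows, 3 held an E-box (5.26%, against 6.34% of all 35116 promoters), 6 an M-box core (10.5%, against 9.42%), 6 an AP-1 site (10.5%, against 6.57%) and 6 a TEAD site (10.5%, against 11.9%). A match is a description of the letters and not evidence of a bound factor.

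Among the ERBB receptors, ERBB3 was the most abundant and EGFR was barely present. ERBB3, which binds neuregulin and signals through its partners, had 182, 201 and 223 CPM in neg.si and 177, 113 and 157 CPM in RIPK4.si. The groups did not overlap, though the highest RIPK4.si library lay just under the lowest neg.si library. The log2 fold change was -0.44 (SE 0.19, 95% interval -0.87 to -0.01, edgeR adjusted p = 0.435), and -0.26 without RIPK4.si 2. There were 1.25, 1.33 and 1.04 AXL counts for each ERBB3 count in neg.si and 1.63, 2.43 and 1.99 in RIPK4.si. AXL lay higher and ERBB3 lower in every RIPK4.si library than in any neg.si library. The ratio thus could not overlap and adds no evidence. ERBB2, the partner kinase without a ligand of its own, overlapped at 47.3 to 78.7 CPM in neg.si and 64.4 to 72.1 in RIPK4.si (log2 fold change 0.13, edgeR adjusted p = 0.915). The ERBB2 value was 0.36 without neg.si 1 and -0.03 without neg.si 3. EGFR, often high in dedifferentiated melanoma cells, had 9, 16 and 1 counts in neg.si and 8, 7 and 12 in RIPK4.si and was too low to be tested.

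TIE1 and FLT1, receptors best known from endothelial cells, were both clearly detected, while the 3 of 5 endothelial markers that are in the table summed to 1.16 to 1.73 CPM. TIE1, an orphan receptor that acts with the angiopoietin receptor TEK, had 55.4, 48 and 39.9 CPM in neg.si and 32.6, 33.8 and 34.1 CPM in RIPK4.si. The groups did not overlap, and the neg.si libraries were the more spread. The log2 fold change was -0.51 (SE 0.16, 95% interval -0.88 to -0.14, edgeR adjusted p = 0.247). TIE1 passed only where the GC trend was removed (log2 fold change -0.54, edgeR adjusted p = 0.0354), and did not with a replicate block added to that fit (0.0541). Over 14 alternatives its adjusted p ran from 0.0354 to 0.746. Without neg.si 1 its log2 fold change was -0.38 (edgeR adjusted p = 0.366) and without neg.si 3 it was -0.62 (0.0707). FLT1, a VEGF receptor, had 43.7, 66.1 and 83.1 CPM in neg.si and 54.1, 33.2 and 48.1 CPM in RIPK4.si. The groups overlapped through neg.si 1 (log2 fold change -0.51, SE 0.26, edgeR adjusted p = 0.541). The FLT1 value was -0.71 without neg.si 1 and -0.28 without neg.si 3, with edgeR adjusted p of 0.194 and 0.625. TEK (log2 fold change 0.21) and KDR (-0.15), the main signalling VEGF receptor, were at 1.10 to 2.43 CPM and overlapped. The TEK value was 0.04 to 0.38 with a library left out.

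For RET and FGFR3, both at low levels, the groups did not overlap, and a difference did not pass the test. RET, the receptor for GDNF family ligands, had 4.46, 4.46 and 4.0 CPM in neg.si and 2.76, 2.87 and 3.05 CPM in RIPK4.si, without overlap (log2 fold change -0.57, SE 0.20, edgeR adjusted p = 0.296). FGFR3, a fibroblast growth factor receptor, had 1.74, 1.10 and 1.01 CPM in neg.si and 0.682, 0.554 and 0.739 CPM in RIPK4.si, without overlap (log2 fold change -0.96, SE 0.34, edgeR adjusted p = 0.318). Without neg.si 1 the FGFR3 value was -0.66 (edgeR adjusted p = 0.480). The other fibroblast growth factor receptors overlapped between the groups, FGFR1 at 68.0 to 101 CPM (log2 fold change 0.08) and FGFR4 at 2.64 to 3.92 CPM (0.27, and 0.18 to 0.46 with a library left out). MST1R, the receptor for macrophage-stimulating protein, was at 3.53 to 4.12 CPM in neg.si and 2.96 to 3.31 in RIPK4.si, without overlap (log2 fold change -0.28, edgeR adjusted p = 0.734). Its relative MET, the HGF receptor, had 3.78, 4.79 and 6.33 CPM in neg.si and 5.90, 2.87 and 6.21 in RIPK4.si. These overlapped, with a log2 fold change of 0.01 and a 95% interval from -0.70 to 0.72, which leaves room for sizeable changes in either direction (edgeR adjusted p = 0.997).

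NGFR, the marker of the neural crest-like state, had 93.0, 75.9 and 50.6 CPM in neg.si and 63.1, 57.2 and 60.6 CPM in RIPK4.si. All RIPK4.si libraries lay inside the neg.si range (log2 fold change -0.28, SE 0.21, edgeR adjusted p = 0.767). The value was -0.05 without neg.si 1 and -0.48 without neg.si 3, with edgeR adjusted p of 0.929 and 0.162. PTK7, a kinase-dead receptor of the Wnt and planar polarity pathways, had 92.9, 84.9 and 62.4 CPM in neg.si and 68.0, 69.5 and 67.3 CPM in RIPK4.si (log2 fold change -0.23, SE 0.17, edgeR adjusted p = 0.757). Its value was -0.09 without neg.si 1 and -0.38 without neg.si 3. DDR1, a collagen receptor, spread in the same way in neg.si, at 85.9, 68.4 and 47.5 CPM, around 61.8, 73.6 and 63.0 CPM in RIPK4.si (log2 fold change -0.02, 0.21 without neg.si 1 and -0.22 without neg.si 3). These 3 genes were highest in neg.si 1 and lowest in neg.si 3.

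The longest transcripts of NGFR, PTK7 and DDR1 are 58.3% to 62.9% G and C. The ratio of neg.si 3 to neg.si 1 was 0.544 for NGFR, 0.554 for DDR1 and 0.672 for PTK7, against 1.90 for FLT1 and 1.79 for MERTK, at 45.3% and 46.7%. Not every receptor followed GC content, since PDGFRA (42.9%) had the lowest ratio, 0.325, on few counts, and KDR (47.0%) had 0.845, while MST1R (59.9%) had 1.11 and ALK (57.9%) had 1.04. Over the 24 receptor genes tested, the rank correlation of GC content with the deviation of a library was 0.516 in neg.si 1, -0.296 in neg.si 3, -0.387 in RIPK4.si 1 and -0.073 to 0.0209 in the other 3 libraries. Among these genes neg.si 3 thus did not stand apart from RIPK4.si 1, and the values describe genes that share their libraries. The part of GC content in any receptor's difference between groups was not tested beyond the GC-adjusted values given here.

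**Figure D4:**
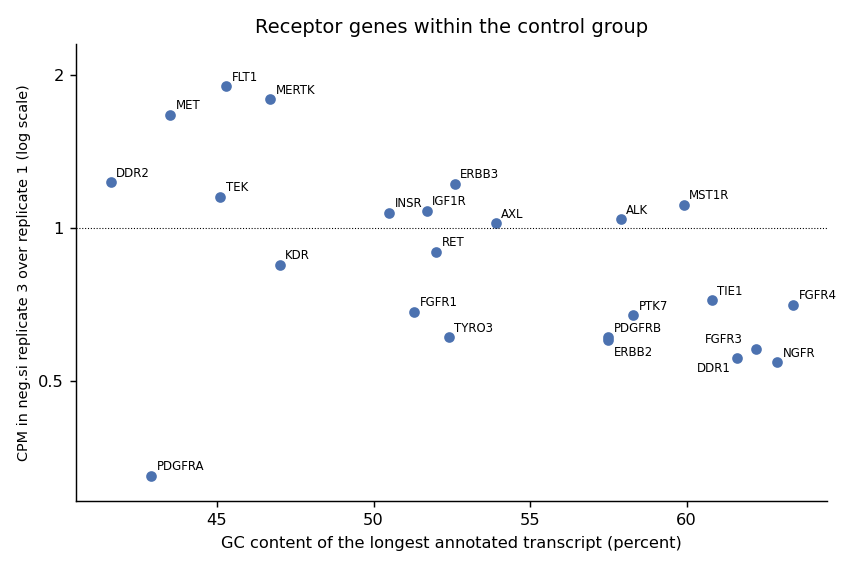
Ratio of CPM in neg.si 3 to neg.si 1 (y axis, log scale) against the GC content of the longest transcript in percent (x axis) for the 24 receptor genes tested. Both libraries are controls, and the ratio runs from 0.325 for PDGFRA to 1.90 for FLT1.

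The remaining receptors overlapped between the groups. IGF1R, the IGF receptor, had 137, 149 and 148 CPM in neg.si and 149, 120 and 144 in RIPK4.si (log2 fold change -0.07, 95% interval -0.40 to 0.26, edgeR adjusted p = 0.944), and the insulin receptor INSR was at 27.0 to 33.6 CPM. DDR2, a receptor for fibrillar collagen, had 104, 114 and 127 CPM in neg.si and 130, 123 and 136 in RIPK4.si (log2 fold change 0.17, SE 0.14, edgeR adjusted p = 0.790). PDGFRB, a PDGF receptor, had 3.52, 3.70 and 2.14 CPM in neg.si and 3.41, 4.15 and 4.57 in RIPK4.si (log2 fold change 0.38, SE 0.26, edgeR adjusted p = 0.726). The PDGFRB value was 0.17 without neg.si 3 and 0.49 without neg.si 1. PDGFRA and ALK were at 0.283 to 1.38 CPM. Besides EGFR, 4 receptor genes were too low to be tested. CSF1R, LTK, NTRK3 and STYK1 had 0 to 8 counts in any library, and differences in them were not detectable at this depth. Exons of EGFR, ERBB2, MST1R, FGFR1, NGFR and ALK, like those of AXL, overlap a gene on the opposite strand.

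No ligand of these receptors passed in edgeR without GC adjustment. Of 55 listed, 42 were in the table and 32 tested, with 0 called, a median log2 fold change of -0.13, and 2 higher (4.85% of all genes) and 4 lower (6.0%) at an unadjusted p under 0.05. DESeq2 called 1 (2.78% of all genes), VEGFA, and edgeR with the GC trend removed called 2 (3.27%), VEGFA (adjusted p = 0.0316) and EGF (0.0471), both higher. VEGFA, a ligand of FLT1 and KDR, had 251, 271 and 232 CPM in neg.si and 406, 383 and 374 in RIPK4.si, without overlap (log2 fold change 0.63, edgeR adjusted p = 0.0966, DESeq2 adjusted p = 0.00829).

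Of 12 genes tested of 17 on a list of co-receptors and the sheddases ADAM10 and ADAM17, which cleave receptors and ligands, 2 were called, both higher, against 0.767% of all genes tested, while the median log2 fold change was -0.18. At an unadjusted p under 0.05, 2 were higher (4.85% of all genes) and 5 lower (6.0%), and the groups did not overlap for 2 that were higher (8.23%) and 5 that were lower (9.4%), the 5 being ADAM10, ADAM17, FGFRL1, GFRA3 and SORT1. SDC4, a heparan sulfate proteoglycan that presents growth factors, had 58.0, 58.3 and 54.0 CPM in neg.si and 98.5, 122 and 109 in RIPK4.si. It rose without overlap, by 0.95 on the log2 scale (SE 0.15, edgeR adjusted p = 0.0329). SDC2, of the same family, had 163, 154 and 156 CPM in neg.si and 256, 284 and 261 in RIPK4.si. It rose by 0.76 (SE 0.14, edgeR adjusted p = 0.0451), and did not pass with a replicate block (0.0665) or with no filter on low counts (0.0543). SORT1, which binds proneurotrophins together with NGFR, did not pass in edgeR (log2 fold change -0.67, edgeR adjusted p = 0.156), and passed with DESeq2 (adjusted p = 0.0302) and with the GC trend removed (edgeR adjusted p = 0.0438).

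Of 28 adaptors tested of 33 listed, 1 was called, against 0.767% of all genes, and their median log2 fold change was -0.06. At an unadjusted p under 0.05, 0 were higher (4.85% of all genes) and 2 lower (6.0%), SHC4 and SHC2. SHC4, a member of the SHC family that couples receptors to GRB2, had 39.2, 44.7 and 45.6 CPM in neg.si and 18.9, 21.7 and 22.6 in RIPK4.si. It fell by 1.03 on the log2 scale, without overlap (SE 0.16, edgeR adjusted p = 0.0329). SHC2, of the same family, did not pass (log2 fold change -1.26, edgeR adjusted p = 0.149), and did with the GC trend removed (0.0339). Of the 21 inhibitors tested, 0 were called by edgeR or DESeq2, with 3 higher (4.85% of all genes) and 5 lower (6.0%) at an unadjusted p under 0.05 and a median log2 fold change of -0.08. Named after their values were seen, SPRED3, an inhibitor of RAS and MAPK signalling, had a log2 fold change of -0.75 (edgeR adjusted p = 0.129, and 0.0412 with the GC trend removed). DUSP6, a phosphatase of ERK, had a log2 fold change of -0.44 (edgeR adjusted p = 0.268), and the Sprouty genes SPRY4 and SPRY2 had -0.42 (0.346) and 0.35 (0.378).

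Across the lists of the melanoma states, edgeR called PMEL, which fell, and CCN1 and CCN2, which rose. Of 22 melanocytic genes tested, edgeR called 1 (0.767% of all genes) and DESeq2 called 4 (2.78%). Their median log2 fold change was 0.02, with 2 higher (4.85% of all genes) and 5 lower (6.0%) at an unadjusted p under 0.05. PMEL, a melanosome fibril protein, had 312, 279 and 249 CPM in neg.si and 117, 104 and 119 in RIPK4.si, without overlap, and fell by 1.30 on the log2 scale (edgeR adjusted p = 0.0111). Its exons overlap CDK2 on the opposite strand. MITF had 291, 356 and 396 CPM in neg.si and 347, 349 and 378 in RIPK4.si (log2 fold change 0.04, edgeR adjusted p = 0.975). SOX10, the neural crest factor above MITF, had 428, 384 and 290 CPM in neg.si and 319, 334 and 340 in RIPK4.si (log2 fold change -0.15, edgeR adjusted p = 0.876). The SOX10 value was -0.29 without neg.si 3 and -0.01 without neg.si 1. The pigment genes DCT and TYR and the receptor EDNRB did not pass in edgeR (adjusted p = 0.0854, 0.148 and 0.115) and were called by DESeq2, at log2 fold changes of -0.73, -0.57 and -0.69. With the GC trend removed, edgeR called DCT (adjusted p = 0.0207) and, in the other direction, TFAP2A (log2 fold change 0.53, adjusted p = 0.0472) beside PMEL.

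Of 24 genes of the dedifferentiated state tested, 2 were called, both higher, against 0.767% of all genes. Their median log2 fold change was -0.02, and 5 were higher and 1 lower at an unadjusted p under 0.05 (4.85% and 6.0% of all genes). CCN2 and CCN1, matricellular proteins and YAP/TAZ targets, rose. CCN2 had 56.8, 62.6 and 58.9 CPM in neg.si and 131, 149 and 140 in RIPK4.si (log2 fold change 1.24, edgeR adjusted p = 0.0102), and CCN1 had 5.39, 5.96 and 5.79 CPM against 13.5, 17.1 and 13.7 (1.37, 0.0196). DESeq2 called 5 of the list, against 2.78% of all genes, adding CAV1 (log2 fold change 0.87) and THBS1 (0.71), which were higher, and NT5E (-0.71), which was lower. SOX9 (log2 fold change 0.57, edgeR adjusted p = 0.255) and WNT5A (0.34, 0.887) did not pass. The WNT5A value was 0.01 without neg.si 1 and 0.90 without neg.si 3. Of 9 neural crest-like genes tested beside NGFR, 0 were higher (4.85% of all genes) and 3 lower (6.0%) at an unadjusted p under 0.05. Their median log2 fold change was -0.24, and that of all genes was -0.02. In this list edgeR called 0 (0.767% of all genes) and DESeq2 called 1 (2.78%), RXRG. Its log2 fold change was -0.66, with an edgeR adjusted p of 0.0761, and 0.0158 with the GC trend removed. The calls of PMEL, SDC2, SDC4, SHC4, CCN1 and CCN2, like that of MERTK, did not hold without neg.si 2 or without any 1 RIPK4.si library, and that of SDC2 did not hold without neg.si 1 either (edgeR adjusted p = 0.0705). With a library left out, log2 fold changes ran from -1.376 to -1.199 for PMEL, 0.723 to 0.803 for SDC2 and 0.883 to 1.037 for SDC4. They ran from -1.082 to -0.952 for SHC4, 1.263 to 1.444 for CCN1 and 1.199 to 1.295 for CCN2.

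**Figure D5:**
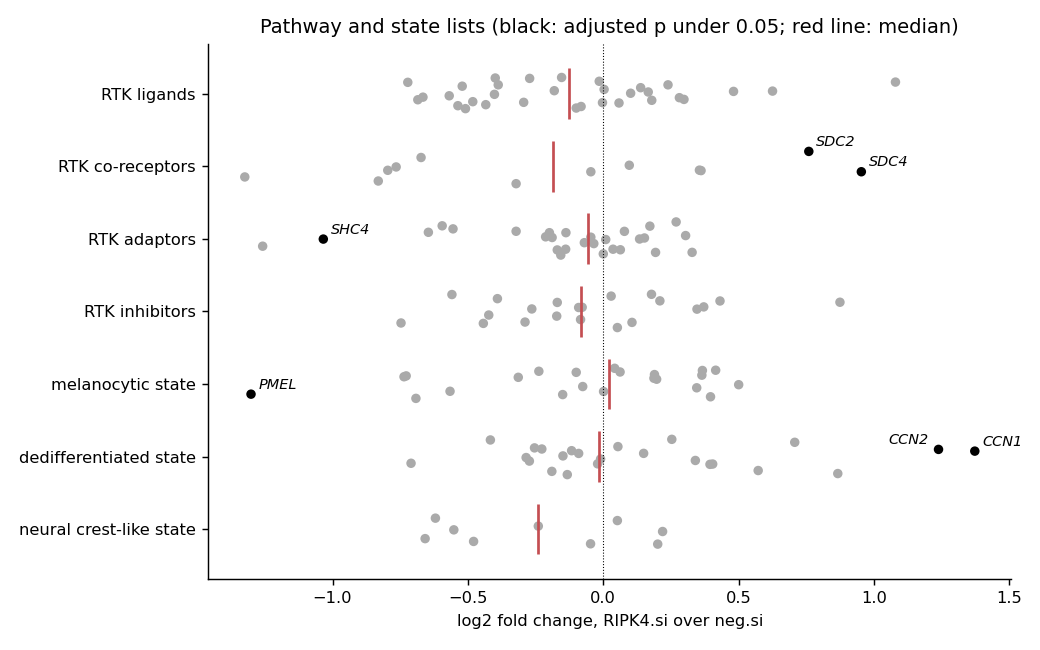
Log2 fold change of RIPK4.si over neg.si (x axis) for every tested gene of the ligand, co-receptor, adaptor, inhibitor and melanoma state lists, 1 point a gene, with the genes called by edgeR in black and named and the median of each list as a red line. The points of every list lie on both sides of 0, and the called genes are SHC4 and PMEL on the lower side and SDC2, SDC4, CCN1 and CCN2 on the higher side.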

How the data were processed

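RNA was measured in 6 WM266.4 libraries, 3 neg.si and 3 RIPK4.si. The authors used Cutadapt for trimming, TopHat for alignment (GRCh38.p13) and HTSeq, unstranded, for counting. Each deposited count is a whole number that was not normalized. The deposited signal values are counts divided by the authors' DESeq2 size factors. The authors' own comparison, a fold ratio, a log2 fold change and its p-value and adjusted p-value, was deposited beside them and not used here.

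The deposited counts were tested for condition with edgeR 4.0.16 in R 4.3.3, with TMM normalization, edgeR's low-count filter and a quasi-likelihood test with Benjamini-Hochberg adjustment over 16297 genes at 0.05. CPM values are counts scaled by TMM-adjusted library totals. Exonic lengths, the GC content of the longest transcript and overlaps came from GENCODE 44, which held 24416 of the gene identifiers. Intervals are 95%. Totals of 28464057 to 31688095 counts a library give precision for abundant receptors and little for those under the filter, and replicates differed by a common biological coefficient of variation of 0.211. Samples were grouped by title. The methods and labels speak of replicates, and the labels give no batch. Scripts were tested on simulated data.

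The alternatives were DESeq2 1.42.0, its size factors or upper-quartile scaling in edgeR, no filter or at least 10 counts in every library, a replicate block, removal of each library's GC trend (lowess, span 0.3), both, and each library left out. A length from the longest transcript was added after seeing the data. Named in full were receptors called by edgeR, DESeq2 or the GC-adjusted fit, those without overlap and an absolute log2 fold change of at least 0.5, the 6 with the highest level per length, and AXL, ERBB3, EGFR, MET, PDGFRB and NGFR. The same rule lists KIT, whose expression was not analysed here. From each pathway list, at most 6 genes called by edgeR or DESeq2 were named, with MITF, SOX10, SOX9 and WNT5A. The TAM ligands GAS6 and PROS1 and EGF, the adaptor SHC2, ADAM10, ADAM17, FGFRL1, GFRA3, TFAP2A and the inhibitors SPRED3, DUSP6, SPRY4 and SPRY2 were named outside this rule, after their values were seen. The members and lists were chosen with earlier results of these data known. Calculations outside R used Python 3.11.15, numpy 2.4.6, pandas 2.3.3, scipy 1.17.1 and matplotlib 3.10.9.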

Additional observations from a re-analysis of the deposited data

How the results depend on the processing

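With 3 libraries a group and 12 to 68 MERTK counts, small changes in low receptors could not be seen. The log2 fold change of RIPK4 was -2.06 to -1.74 with a library left out. Its edgeR adjusted p was then 0.106 without neg.si 2, 0.094 without RIPK4.si 1, 0.0622 without RIPK4.si 2 and 0.0725 without RIPK4.si 3. The number of genes called in all was 125, and 117 to 131 with another scaling, no filter or a replicate block, 108 with at least 10 counts in every library, 430 with DESeq2, 533 with the GC trend removed and 434 with that and a block. With a library left out it was 0 to 295. It was 0 without neg.si 2, RIPK4.si 1 or RIPK4.si 3, 4 without RIPK4.si 2, 70 without neg.si 1 and 295 without neg.si 3. The cause was not tested, beyond the fewer libraries.

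Receptor genes called were 1, 2 with the GC trend removed, and 0 to 1 with a library left out. With the replicate block, MERTK kept its call (edgeR adjusted p = 0.0498). Same-numbered libraries of the groups deviated together with correlations of -0.242, 0.251 and 0.346, and differently numbered ones with -0.498 to 0.413. These values do not show whether replicate numbers pair the libraries. The ligand list had 1 called with DESeq2 and 2 with the GC trend removed, the inhibitors 1 with the GC trend removed, and the adaptors 2 with it and 0 to 1 with a library left out. Co-receptors called were 1 with no filter or the block, 5 with the GC trend removed, 4 with that and the block, and 0 to 3 with a library left out. Melanocytic genes called were 4 with DESeq2, 3 with the GC trend removed, 2 with that and the block, and 0 to 1 with a library left out. Dedifferentiated genes called were 5 under each of these 3 and 0 to 3 with a library left out. Neural crest-like genes called were 1 under each of these 3 and 0 to 1 with a library left out.

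The direction turned with the block for DDR1 (log2 fold change 0.013) and MET (-0.032), neither of which was called. With a library left out, log2 fold changes ran from -0.218 to 0.206 for DDR1, -0.027 to 0.357 for ERBB2, -0.059 to 0.218 for FGFR1, -0.122 to 0.026 for IGF1R, -0.355 to 0.213 for KDR, -0.174 to 0.296 for MET, -0.054 to 0.15 for MITF and -0.534 to 0.245 for PDGFRA. Under the longest transcript length, the ERBB3 share of the summed receptor level in neg.si was 14.5% in place of 11.2%.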
